A study of Mus musculus with 2 samples.

Results

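The replication licensing genes described here are the 10 genes Mcm2, Mcm3, Mcm4, Mcm5, Mcm6, Mcm7, Mcm10, Cdc6, Cdt1 and Gmnn, of 30905 genes listed in the count tables. They were chosen by symbol, each symbol matched a single row of the gene list, and all 10 passed the filter on low counts in every comparison. C57BL/6J mice, 8 weeks old, had been immunized with SRBC (sheep red blood cells), and their splenic germinal center B cells were sorted. The series holds 2 libraries of this 1 group, called library 1 and library 2, each made with the 10x Genomics 3′ version 3 kit, a droplet method that reads the 3′ ends of transcripts cell by cell, with captured molecules counted as unique molecular identifiers (UMIs). There was no treated or mutant group, so every comparison is between classes of cells within these libraries. Separate animals, pooling and culture are not given in the labels for either library. P-values therefore measure at most the spread between these 2 libraries, which may be technical. In 1 fit, of zone gates with the cycle class as a term, the spread also includes differences between cycle classes within a library.

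Licensing prepares each replication origin to fire once and only once per cell cycle. The origin recognition complex binds the origin, CDC6 joins it, and CDT1 brings in the MCM helicase, a ring of MCM2, MCM3, MCM4, MCM5, MCM6 and MCM7 that is loaded as an inactive double ring before S phase. MCM10 acts later, when the loaded helicase is activated and begins to unwind DNA. Geminin, encoded by Gmnn, binds CDT1 and blocks further loading from S phase to mitosis, and CDT1 and geminin are each destroyed by ubiquitin ligases at different times in the cycle. In germinal centers, B cells divide rapidly in the dark zone and are selected by antigen and T cell help in the light zone, where cells chosen to divide again induce Myc. Several licensing genes are known targets of E2F transcription factors, which switch genes on at entry into S phase.

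Promoter sequences are shown because the members rose and fell together with the cell cycle. RefSeq promoter windows of GRCm38.p6, the assembly also called mm10, from 250 bases before to 50 bases after the start site, were matched for 8 members by symbol (Mcm7 has 2 windows). Mcm4 and Gmnn had no entry. The letters TTTGGCGC, TTTCGCGC, TTTCCCGC and TTTGCCGC, forms of the E2F site, were searched on both strands, with no mismatch allowed. They were found for 6 of the 8 members, Mcm3, Mcm5, Mcm6, Mcm7, Cdc6 and Cdt1, and in 2.26% of all 32851 promoter windows of the same length. In the sequences below, written 5′ to 3′ on the strand of the gene, capitals mark the E2F letters. In Mcm5 and in the upstream site of Mcm6, matches on both strands overlap each other.
Mcm6, minus strand, chr1:128359706-128359855, 150 bases up to the start site: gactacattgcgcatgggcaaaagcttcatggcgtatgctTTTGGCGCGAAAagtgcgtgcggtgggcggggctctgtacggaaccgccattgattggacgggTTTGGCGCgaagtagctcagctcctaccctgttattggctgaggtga
Mcm5, plus strand, chr8:75109345-75109374: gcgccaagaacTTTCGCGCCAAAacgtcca
Mcm7, minus strand, chr5:138172030-138172059: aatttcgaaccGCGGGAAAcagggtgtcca
Cdc6, plus strand, chr11:98908002-98908031: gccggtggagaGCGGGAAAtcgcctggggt
The Mcm6 window held E2F letters starting 110 and 47 bases before the start site, the Mcm5 site started 153 bases before it, that of Mcm7 165 bases and that of Cdc6 138 bases before it. These distances are from RefSeq start sites. By the gene positions given below, from another annotation, the printed Mcm7 and Cdc6 sites lie inside the genes. The letters CCAAT, searched in the same way, were in windows of 6 of the 8 members, against 37.4% of all windows. The CHR letters TTTGAA and TTCGAA were in windows of 2 of the 8, Mcm2 and Mcm7, against 19.2% of all windows. A match is a description of the sequence, not evidence that a factor binds there.

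The genes lie on mm10 chromosomes 6 (Mcm2, 88883474 to 88898780), 1 (Mcm3, 20802968 to 20820312, and Mcm6, 128331590 to 128359664), 16 (Mcm4, 15623897 to 15637400), 8 (Mcm5, 75109569 to 75128439, and Cdt1, 122568015 to 122573554), 5 (Mcm7, 138164583 to 138172422), 2 (Mcm10, 4989714 to 5012791), 11 (Cdc6, 98907801 to 98923940) and 13 (Gmnn, 24751845 to 24761923). A read-through gene on the same strand, Gm20388, covers all 5540 bases of Cdt1. Gm20388 was listed with 0 UMIs in both libraries, so reads that fit both genes may have been assigned to Cdt1 or dropped, and Cdt1 counts are uncertain to that extent. The 3′ end of Mcm7 overlaps that of Cops6, on the other strand, by 64 bases, and Mcm7 also hosts Mir25, Mir93 and Mir106b.

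The libraries held 75121538 and 61874342 UMIs over 8765 and 7868 barcodes, and the filters on genes, UMIs and mitochondrial share kept 5142 and 3526 barcodes with median depths of 8183.5 and 8243 UMIs. Classes were read on counts thinned to 3400 UMIs per cell, which left out 465 and 391 shallower barcodes, so that 4677 and 3135 cells entered the results. Libraries shared 22 barcodes, 9 of them among the kept. Doublet calling found 0 doublets in each library and so did not work here, and doublets were not removed. The germinal center B cell markers Bcl6, S1pr2, Fas, Gcsam and Rgs13 were each detected in at least 23.2% of cells of each library. None of the 6 T cell markers exceeded 0.478% of cells and none of the 8 macrophage markers 2.11%, whereas 4 and 5 of the 8 naive and memory B cell markers were in at least 5% of cells.

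All 10 licensing genes were measured in both libraries at similar levels. Levels are given as counts per 1000000 UMIs (CPM) of the summed cells of a class. Over all cells, Mcm2 to Mcm7 together came to 1270 CPM in library 1 and 1391 CPM in library 2, and 84.9% and 86.9% of cells had a UMI of at least 1 of these 6 genes at the thinned depth. Mcm5 stood at 329 and 335 CPM and was found in 54.0% and 56.6% of cells. Cdc6 stood at 43.9 and 43.8 CPM and was found in 12.4% and 11.5% of cells. Levels of different genes are not ranked here, since the capture of 3′ ends differs from gene to gene.
The smallest difference between libraries was that of Cdc6, and Mcm3, Mcm6, Mcm7 and Gmnn were each higher in library 2. Gmnn was at 155 and 180 CPM. Cdt1, which loads the helicase, was at 48.7 and 47.9 CPM, and Mcm10 at 50.1 and 51.4 CPM. In all cells, 15.3% and 15.0% had a Cdt1 UMI, 12.9% and 14.1% a Mcm10 UMI and 31.3% and 36.2% a Gmnn UMI. A cell with no UMI of a gene is therefore not shown to lack its transcript, because the unthinned counts gave 37.7% and 38.5% for Cdt1 and 59.1% and 63.4% for Gmnn in the same cells.

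The cell cycle was read from other genes. Each cell was placed in 1 of 4 classes from its thinned UMIs summed over 30 replication genes, such as Pcna and Tyms, and over 52 mitosis genes, such as Top2a and Ccnb2, neither list holding a member. A cell above its library's median in the first list alone was called replication-only, in the second alone mitosis-only, in both lists both, and in none neither. The classes held 1379 and 870 cells (neither), 1024 and 716 (replication-only), 1193 and 836 (both) and 1081 and 713 (mitosis-only). These are ranges of 2 sums rather than separate cell types: 702 and 496 cells (15.0% and 15.8%) lay within 1 UMI of the replication median and 206 and 127 (4.40% and 4.05%) within 1 UMI of the mitosis median. Because the lists and the members were counted in the same cells, a difference between classes describes genes that are expressed together.

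All 10 licensing genes rose from the neither to the replication-only class, and 9 of them, all but Gmnn, were highest there of the 4 classes in both libraries. The 10 calls compare with 27.4% of 11051 genes tested that were called higher, 25.2% called lower and 52.5% in either direction (edgeR quasi-likelihood test on class sums with library as a block, Benjamini-Hochberg adjusted p below 0.05). The median log2 fold change of the members was 1.40, and that of all genes was -0.02.
Cdc6, the loader that recruits the helicase with CDT1, was at 16.5 and 16.8 CPM in the neither class and at 86.8 and 84.7 CPM in the replication-only class. This is a 5.36-fold difference, with a log2 fold change of 2.42 ± 0.090 (SE, n = 2 libraries, edgeR adjusted p = 3.57e-27). The 2 libraries gave nearly the same level in each class.
Mcm10, which acts after loading, rose from 12.98 and 17.7 CPM to 72.5 and 73.0 CPM, a log2 fold change of 2.34 ± 0.091. Cdt1 rose least, from 44.3 and 44.2 CPM to 63.4 and 58.8 CPM, a log2 fold change of 0.53 ± 0.072 (SE, n = 2, edgeR adjusted p = 2.00e-08). The range over the members thus ran from a 1.44-fold difference for Cdt1 to 5.36-fold for Cdc6, although both proteins act at the same loading step.
Among the ring subunits, Mcm7 rose most, from 91.8 and 105 CPM to 288 and 320 CPM, a log2 fold change of 1.68 ± 0.051. Mcm2 rose least, from 123 CPM in both libraries to 247 and 245 CPM, a log2 fold change of 1.06 ± 0.054. Mcm3, Mcm4, Mcm5 and Mcm6 lay between them, at 1.25, 1.31, 1.49 and 1.12, and Mcm5 reached 481 and 487 CPM from 180 and 179 CPM. Gmnn, the inhibitor of loading, rose from 68.6 and 86.2 CPM to 202 and 221 CPM, a log2 fold change of 1.52 ± 0.057. Transcripts of the inhibitor thus rose together with those of the machinery that it inhibits.

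**Figure D1:**
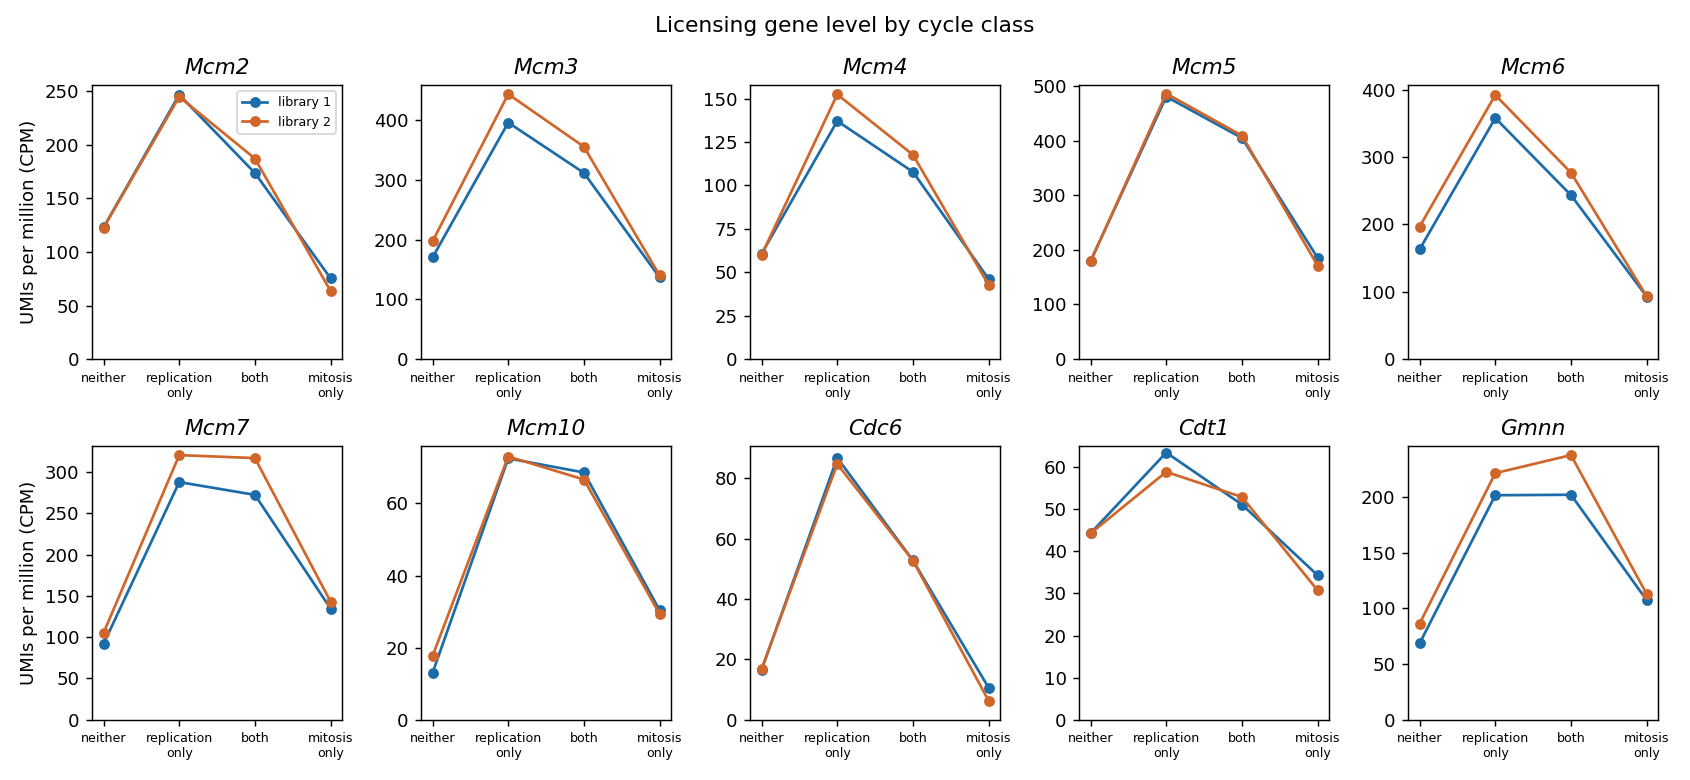
Level of each licensing gene, in CPM (vertical axis, linear, from 0), in the 4 cycle classes (horizontal axis). Each point is the sum of the cells of 1 library, and lines only join points of 1 library. Cdc6 is at 86.8 and 84.7 CPM in the replication-only class, 52.8 and 52.7 CPM in the both class and 10.6 and 6.28 CPM in the mitosis-only class. Gmnn is at 202 and 221 CPM, 202 and 238 CPM, and 107 and 113 CPM in the same classes.

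From the replication-only class to the mitosis-only class, all 10 members fell, where 26.7% of genes tested were called lower, 26.2% higher and 52.9% in either direction. Cdc6 fell most, to 10.6 and 6.28 CPM, a log2 fold change of -3.28 ± 0.096 (SE, n = 2, edgeR adjusted p = 8.52e-32). The next was Mcm6, which fell from 358 and 392 CPM to 92.9 and 93.2 CPM, a log2 fold change of -2.02 ± 0.051. The smallest falls were those of Cdt1, at -0.92 ± 0.072, and Gmnn, at -0.95 ± 0.052.
The mitosis-only class did not simply return to the levels of the neither class. Against the neither class, 6 members were lower (Mcm2, Mcm3, Mcm4, Mcm6, Cdc6 and Cdt1) and 3 were higher (Mcm7, Mcm10 and Gmnn), beside 22.1% of genes tested called lower, 22.8% called higher and 44.9% in either direction, and Mcm5 had a log2 fold change of 0.04 ± 0.049 (95% interval -0.06 to 0.13). The subunits of a single ring therefore moved in different directions.
Mcm6 went from 163 and 197 CPM in the neither class to 92.9 and 93.2 CPM in the mitosis-only class, a log2 fold change of -0.89 ± 0.056 (SE, n = 2, edgeR adjusted p = 8.22e-19). Mcm7 went the other way, from 91.8 and 105 CPM to 135 and 143 CPM, a rise of 0.54 ± 0.055 on the log2 scale (edgeR adjusted p = 1.03e-11). Each of these genes had the same direction in both libraries, as did 78.6% of all genes tested.
Mcm10 was higher in the mitosis-only class by 1.05 ± 0.11 and Gmnn by 0.57 ± 0.062, both on the log2 scale. Cdc6 was lower by -0.86 ± 0.14, Mcm2 by -0.76 ± 0.064, Mcm4 by -0.39 ± 0.073, Cdt1 by -0.39 ± 0.080 and Mcm3 by -0.36 ± 0.051. These directions depend on how the classes are drawn. With scanpy cell cycle scores of the same lists, which place each cell by its higher score, all 10 members were called higher in the class of mitosis scores, among them Mcm6 at 0.22 and Cdc6 at 1.82. With these scores 28.8% of genes tested were called higher and 56.6% in either direction. With a mitochondrial limit of 10% Cdt1 was at 0.05 and was not called.

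The neither class differed from the others in more than these genes. Its median depth was 5802 and 6210.5 UMIs, against 9392 to 13331.5 UMIs in the other classes. The summed level of the 8 naive and memory B cell markers was 779 and 981 CPM in it and 276 to 482 CPM in the other classes, and that of the 8 macrophage markers was 63.5 and 17.8 CPM against 5.21 to 9.01 CPM, with no marker of either list at 0. That of the 6 T cell markers was 2.39 and 6.79 CPM against 0.957 to 2.11 CPM. Their part in the differences from the neither class was not tested. The contrast of the mitosis-only with the replication-only class leaves those cells out, although their sums were part of the same fit. The naive and memory sums of the mitosis-only and replication-only classes were 399 to 482 CPM.

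Splitting each list sum within its library into low, middle and high cells of about equal number, a division added after the data had been seen, separated the members further. Among cells of low replication sums, 896 and 538 had low and 537 and 375 had high mitosis sums. In these cells Mcm2 was lower at high mitosis sums (46.5 and 41.8 CPM) than at low ones (88.0 and 78.6 CPM). Mcm6 was lower as well, at 54.4 and 63.3 CPM against 112 and 113 CPM. Mcm7, Mcm10 and Gmnn were higher there in each library.
Mcm7 stood at 107 and 114 CPM at high mitosis sums and at 54.7 and 58.0 CPM at low ones. Mcm10 stood at 23.7 and 25.7 CPM against 6.65 and 4.88 CPM, and Gmnn at 84.3 and 98.8 CPM against 44.4 and 48.0 CPM. So among cells with few replication transcripts, Mcm2 and Mcm6 were lower where mitosis transcripts were many, whereas Mcm7, Mcm10 and Gmnn were higher, in each library. Mcm4 and Cdt1 were also lower at high than at low mitosis sums in each library, and Mcm5 was higher. Mcm3 was at 98.7 and 118 CPM at high mitosis sums and at 112 CPM in both libraries at low ones, so its direction differed between libraries. These values are given as a description, with no test.
Middle mitosis sums gave the highest level of some members. Among cells of low replication sums Cdc6 was 4.66 and 5.15 CPM at low, 16.4 and 17.0 CPM at middle and 3.87 and 3.48 CPM at high mitosis sums. Mcm2, Mcm3, Mcm5 and Mcm6 were likewise highest in the middle in both libraries. There Mcm2 was at 92.0 and 84.9 CPM and Mcm6 at 128 and 117 CPM.

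**Figure D2:**
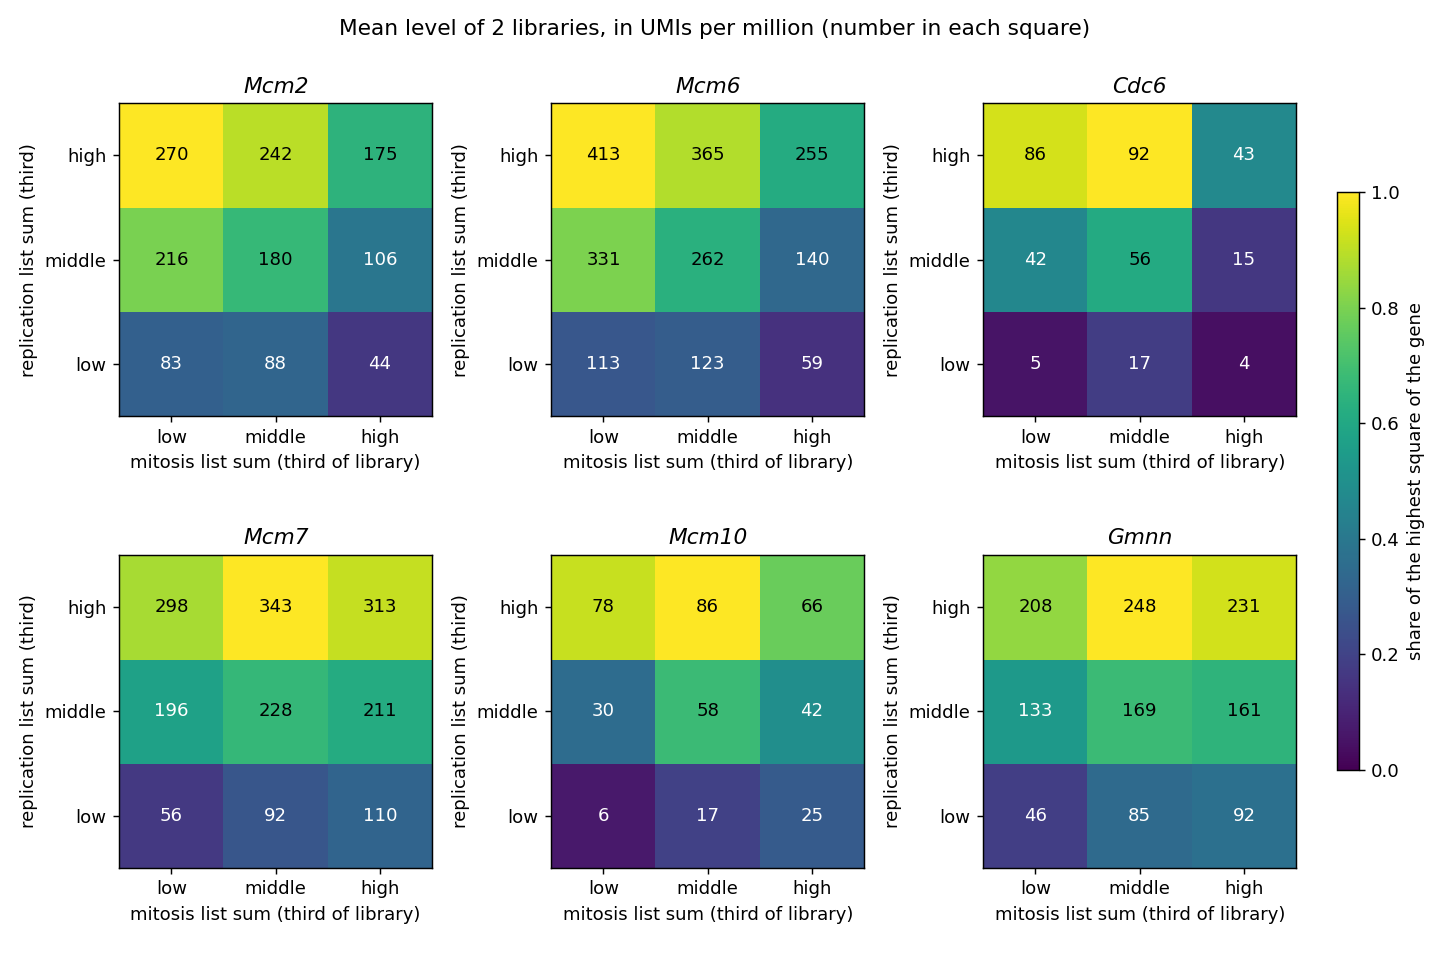
Mean level over the 2 libraries, in CPM (number in each square), of 6 licensing genes in cells split into low, middle and high mitosis list sums (horizontal axis) and replication list sums (vertical axis). Color is the level as a share of the gene's highest square. Mcm2, Mcm6 and Cdc6 are lowest at the lower right, at low replication and high mitosis sums, whereas Mcm7, Mcm10 and Gmnn are lowest at the lower left, where both sums are low.

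Ratios of counts between pairs of members within a class do not depend on the depth of the class. Gmnn counts per Cdt1 count were 1.55 and 1.95 in the neither class, 3.18 and 3.76 in the replication-only class, 3.96 and 4.49 in the both class and 3.13 and 3.68 in the mitosis-only class. Gmnn transcripts were thus lowest relative to Cdt1 transcripts in the neither class, in each library.
Mcm7 counts per Mcm6 count were 0.563 and 0.534 in the neither class and 0.804 and 0.817 in the replication-only class. They were 1.12 and 1.14 in the both class and 1.45 and 1.53 in the mitosis-only class. This ratio had the same order of classes in both libraries, and it was 2.57 and 2.87 times as high in the mitosis-only as in the neither class.
Mcm10 counts per Cdc6 count were 0.786 and 1.05 in the neither class, 0.835 and 0.862 in the replication-only class and 2.86 and 4.67 in the mitosis-only class, where library 2 had only 55 Cdc6 counts.

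The number of ring genes with a UMI was also counted per cell, which restates the class levels and does not test whether these genes occur together. At the thinned depth the median number of the 6 genes Mcm2 to Mcm7 with a UMI in a cell was 1 in the neither class, 4 in the replication-only class, 3 in the both class and 1 in the mitosis-only class, in each library. In the replication-only class, 0.879% and 0.279% of cells had no UMI of any of them, against 29.7% and 26.9% in the neither class and 22.9% and 21.7% in the mitosis-only class. At least 5 of the 6 were found in 25.4% and 30.3% of replication-only cells and in 1.85% and 1.40% of mitosis-only cells.

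**Figure D3:**
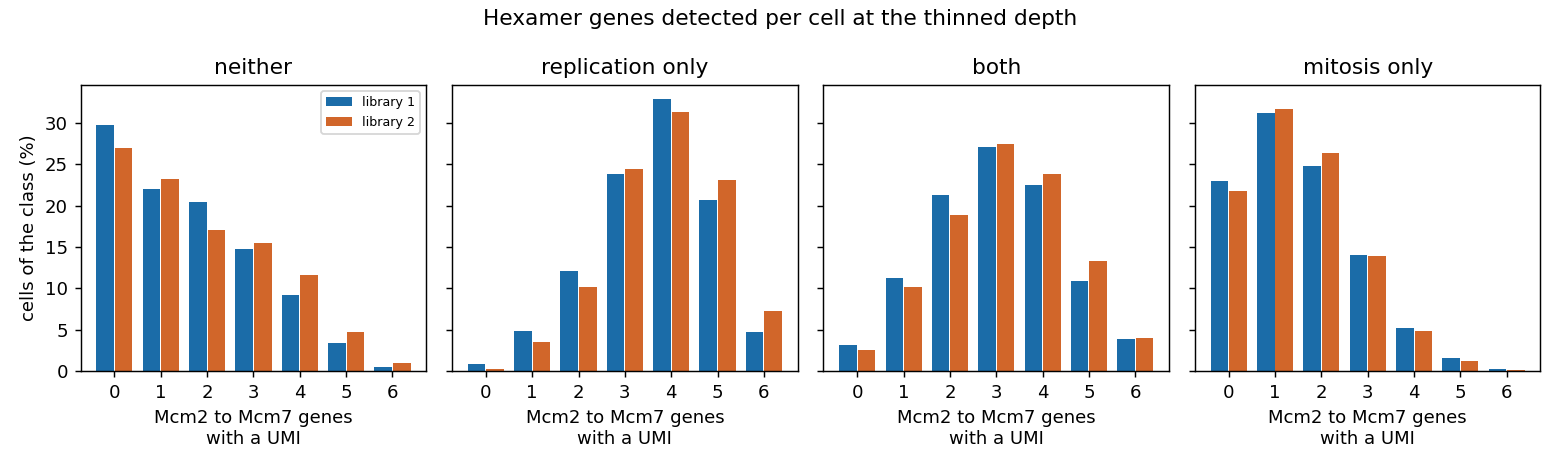
Share of cells of each cycle class (vertical axis, percent) by the number of Mcm2 to Mcm7 genes with at least 1 UMI (horizontal axis), after thinning every cell to 3400 UMIs. Bars are the 2 libraries. The replication-only class peaks at 4 genes, and the mitosis-only class at 1 gene.

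Transcripts of Cdt1 and Gmnn were also looked for in the same cells. Over all cells, 5.22% and 6.12% had UMIs of both, and the product of the 2 separate shares was 4.79% and 5.42%. In the neither class 2.76% and 4.25% of cells had both, above the products of 2.36% and 2.91%, and in the both class 8.30% and 9.33%, above 7.43% and 8.98%. In the replication-only class 7.81% and 8.10% of cells had both, below the products of 8.77% and 8.16%. In the mitosis-only class the values were 2.50% and 2.66%, with products of 2.32% and 2.71%. These shares are a description, with no test. The proteins are destroyed at different times, but these counts are of transcripts only.

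Members also differed in how far they were present in the cells with the least cycle transcripts. The lowest 5% of cells by the sum of both lists (276 and 162 cells, a group added after the data had been seen) included, at the thinned depth, 0 and 2 cells with a Cdc6 UMI and 0 and 2 with a Mcm10 UMI. A count of 0 of 276 allows up to 1.33% of cells with a UMI at this depth (exact 95% binomial interval), which does not limit the share of cells that express the gene. Mcm6 was found in 17.8% and 16.7% of the same cells and Mcm2 in 18.5% and 10.5%. Fewer of these cells thus had a UMI of Cdc6 or Mcm10 than of Mcm2 or Mcm6, as was also so over all cells. Barcodes with macrophage markers, meant as a reference for free RNA in droplets, numbered only 5 and 3, too few to give a background share, so the part of free RNA in these shares was not tested.

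The other genes of the pathway moved with the members in part. Of 6 origin recognition genes, 5 were higher in the replication-only than in the neither class and none lower. Among all genes tested, 27.4% were called higher and 25.2% lower in this comparison. All 13 genes of helicase activation and origin firing were higher, with a median log2 fold change of 1.24, and 7 of 9 genes for CDT1 and geminin turnover and all 6 regulators were higher as well. The largest change was that of Ccne2, a cyclin at S phase entry, at 2.76 ± 0.11. Ccne2 belongs to the replication list and Cdc20 to the mitosis list that drew the cycle classes. Their changes between these classes, here, below and within the counts, were therefore built in and are not results. The next largest changes were those of Cdc45, a part of the active helicase, at 2.60 ± 0.099, Fbxo5, an inhibitor of the ligase that destroys geminin, at 2.43 ± 0.077, and Recql4, at 2.14 ± 0.17.
Of the other MCM genes, Mcm8 and Mcmbp were among the 2 of 3 called higher, and Mcm9 was not called. From the replication-only to the mitosis-only class, 4 of 6 origin recognition genes and 12 of 13 activation genes were lower. The exception was Dbf4, the activating subunit of the CDC7 kinase, at 1.44 ± 0.056. Over all genes tested, 26.7% were called lower and 26.2% higher between these classes. Among the turnover genes, 2 of 9 were higher and 3 lower. Cdc20, an activator of the anaphase-promoting complex that belongs to the mitosis list, was higher by 2.64 ± 0.051, and Fzr1, the other activator, by 1.75 ± 0.057. The regulators Ccne2, Ccne1 and E2f1 fell, at -3.29 ± 0.11, -2.60 ± 0.097 and -2.44 ± 0.074.
Against the neither class, 0 of 6 origin recognition genes were called in the mitosis-only class, 7 of 13 activation genes were higher and 2 lower, and 4 of 6 regulators were lower and 1 higher. Dbf4 at 2.17 ± 0.064 and Fbxo5 at 1.88 ± 0.083 were among the largest changes, after Cdc20 at 3.31 ± 0.058, and Fzr1 followed at 1.70 ± 0.059. Beside these counts, 22.8% of all genes tested were called higher and 22.1% lower in the mitosis-only than in the neither class.

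The genes whose levels were most like the summed Mcm2 to Mcm7 were found over 32 class sums (4 zone classes by 4 cycle classes by 2 libraries) among 8465 genes, by Pearson's r of log2(CPM + 1) centered per library. They were Rpa2, a subunit of the single-strand binding protein RPA (r = 0.984), Slbp (0.980), Pcna (0.976), Chaf1b (0.973), Orc6 (0.970), Ccne2 (0.966), Dtl (0.966), Casp8ap2 (0.964), Hells (0.964) and Pold3 (0.962). Of these, Rpa2, Orc6 and Dtl are not in the list that made the classes. The sums share libraries and cycle classes, and r is a description. The genes most like Gmnn were Rfc4 (0.982), Tyms (0.978) and Rrm2 (0.97). Among the members, Mcm3 followed the rest of Mcm2 to Mcm7 most closely (r = 0.993), Cdc6 reached 0.972, and Mcm10 was the least like them at 0.816.

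Between zones, the licensing genes differed little. The light zone gate took cells without Cxcr4 that had a UMI of either Cd83 or Cd86 (1684 and 1202 cells), and the dark zone gate took cells with Cxcr4 and neither of those genes (792 and 500 cells). Mcm2 to Mcm7 together came to 1172 and 1313 CPM in the light and 1284 and 1395 CPM in the dark zone gate. Of the 10 members, 4 were lower in the light zone gate (Mcm3, Mcm5, Mcm7 and Cdt1) and none was higher, beside 14.3% of 10743 genes tested that were called lower, 16.2% called higher and 30.4% in either direction.
Cdt1 was at 45.8 and 44.9 CPM in the light and 52.6 and 53.5 CPM in the dark zone gate, a log2 fold change of -0.23 ± 0.071 (SE, n = 2, edgeR adjusted p = 0.00593). Mcm7 was at 184 and 220 CPM against 214 and 246 CPM, or -0.20 ± 0.042 on the log2 scale (edgeR adjusted p = 2.06e-05). Within each library the light zone gate had the lower level of each gene, but for Mcm7 the light zone gate of library 2 lay above the dark zone gate of library 1. Mcm5, at -0.14 ± 0.037, and Mcm3, at -0.10 ± 0.039, differed by less.
The number of members called was not stable. It was 0 with DESeq2, where 8.11% of genes tested were called in either direction, and 0 without the library block (4.92%). It was also 0 with another draw of the thinning (21.1%), sums of thinned counts (13.4%) and gates of at least 2 UMIs (23.7%). Without the highest 6% of doublet scores it was 8, where 27.5% of genes tested were called in either direction.

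The zones differed more in cycle makeup than in licensing gene level. The neither class held 38.8% and 36.2% of light zone gate cells and 23.0% and 21.2% of dark zone gate cells. The mitosis-only class held 17.1% and 18.6% of the light and 32.1% and 29.6% of the dark zone gate, and the replication-only class 24.5% and 25.7% against 15.9% and 16%. The both class, whose Mcm2 to Mcm7 level of 1514 and 1664 CPM was the next after the replication-only class, held 19.6% of light zone gate cells in each library and 29.0% and 33.2% of dark zone gate cells. The light zone gate thus held larger shares of the neither and replication-only classes, and the dark zone gate of the both and mitosis-only classes. The naive and memory B cell marker sum was also higher in the light zone gate, at 590 and 658 CPM against 302 and 343 CPM, and the macrophage sum was 34.4 and 12.8 CPM against 11.5 and 5.28 CPM. Their part in the zone differences was not tested.

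With the cycle class as a term in the fit, 5 members were lower in the light zone gate (Mcm2, Mcm3, Mcm5, Mcm6 and Cdt1) and none was higher, beside 10.1% of 9931 genes called lower, 11.7% called higher and 21.8% in either direction. The adjusted p of Mcm2 was 0.0499, just inside the threshold. Cdt1 had the largest difference, with a log2 fold change of -0.35 ± 0.076 (SE, n = 2, edgeR adjusted p = 0.00094). Mcm6 followed at -0.25 ± 0.063, then Mcm5 at -0.16 ± 0.049, Mcm2 at -0.16 ± 0.059 and Mcm3 at -0.15 ± 0.053. Gmnn, the inhibitor, was at 0.03 ± 0.066, with a 95% interval of -0.11 to 0.16.
Cdt1 was lower in the light zone gate in all 4 cycle classes of both libraries, by -0.19 to -0.69 on the log2 scale. In the mitosis-only class the log2 difference was -0.61 and -0.69. Gmnn in the same class was higher in the light zone gate, by 0.27 and 0.34. The zone difference of Mcm4 differed between cycle classes (edgeR interaction test, added after the data had been seen, adjusted p = 0.0342, beside 2.47% of genes tested). Mcm4 was at 0.12 and 0.28 in the replication-only class, -0.45 and -0.30 in the both class and -0.50 and -0.27 in the mitosis-only class. The other 9 members gave interaction adjusted p from 0.203 to 0.901.
Here too the count varied, from 0 to 5. It was 0 with sums of thinned counts (11.8% of genes tested called in either direction) and with gates of at least 2 UMIs (25.1%). In fits of 1 library alone the cycle classes serve as the residual spread, so the members called there are not counted. Over the 15 alternatives, fits of 1 library alone among them, the log2 fold change of Cdt1 ran from -0.35 to -0.13. That of Mcm6 ran from -0.32 to -0.15. Neither gene was called with sums of thinned counts or with gates of at least 2 UMIs.

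**Figure D4:**
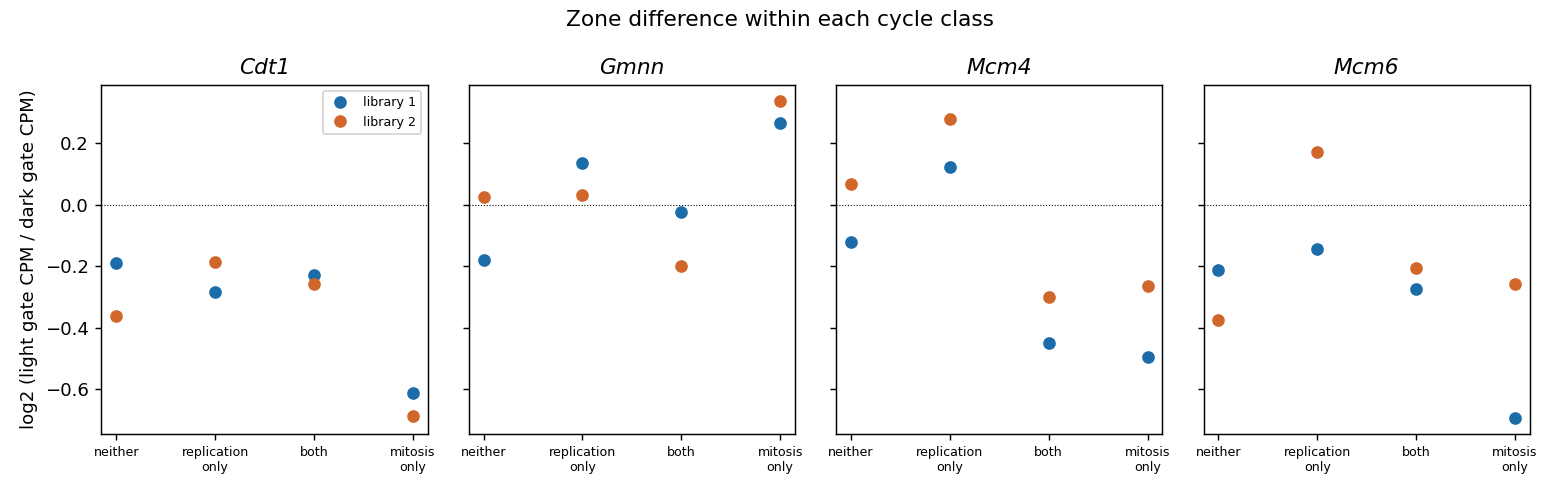
Log2 ratio of the light to the dark zone gate level (vertical axis) of 4 licensing genes within each cycle class (horizontal axis). Points are the 2 libraries. All 8 Cdt1 points lie below 0, whereas the Gmnn points lie on both sides of it.

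In the pathway lists, the light zone gate had lower Cdc20 (-0.75 ± 0.041), Recql4 (-0.41 ± 0.14), Dbf4 (-0.32 ± 0.053) and E2f2 (-0.29 ± 0.054). Called lower were 1 of 6 origin recognition genes, 3 of 13 activation genes, 5 of 9 turnover genes and 2 of 6 regulators, and 1 turnover gene was called higher. Beside them, 14.3% of all genes tested were called lower and 16.2% higher. With the cycle class in the fit, 10.1% of all genes tested were called lower and 11.7% higher. None of the origin recognition and activation genes was called in that fit. There 3 of 9 turnover genes and 2 of 6 regulators were lower and 1 turnover gene was higher. Named by size, these were Cdc20 (-0.44 ± 0.079), E2f2 (-0.27 ± 0.064), Dtl, which marks CDT1 for destruction in S phase (-0.22 ± 0.063), and E2f1 (-0.22 ± 0.070).

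Between isotypes, no difference in any licensing gene was detected. Cells were called IgG (2024 and 1315 cells) or IgM (1656 and 1207 cells) from at least 5 heavy chain constant region UMIs with at least 80% of that kind. With edgeR 0 of 10 members were called, beside 14% of 11200 genes tested in either direction, 5.92% higher and 8.12% lower. No member had an unadjusted p below 0.05. DESeq2 also called 0, beside 2.41% of genes tested in either direction.
Mcm5 had the largest log2 fold change, 0.07 ± 0.039, with a 95% interval of -0.003 to 0.15, from 336 and 349 CPM in IgG and 319 and 324 CPM in IgM cells. Gmnn was at 156 and 184 CPM against 156 and 180 CPM, with an interval of -0.08 to 0.08. The widest interval was that of Cdc6, from -0.05 to 0.19. Changes much larger than these bounds are outside the intervals, but a small difference is not excluded. With a mitochondrial limit of 40%, 2 members were called, Mcm3 at -0.07 and Mcm6 at -0.08, beside 16.1% of 11577 genes tested called lower and 28.2% in either direction at that limit. Of the pathway lists, 3 of 9 turnover genes, namely Skp2 (0.22 ± 0.074), Fzr1 (0.19 ± 0.047) and Cdc20 (0.12 ± 0.040), and 1 of 13 activation genes, Dbf4 (0.13 ± 0.046), were higher in IgG cells.

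Light zone gate cells with a Myc UMI (101 and 111 cells) were set against those with none (1583 and 1091 cells), a comparison directed at cells chosen to divide again. No licensing gene was called by edgeR (0 of 10, beside 23.2% of 10224 genes tested in either direction, 13.3% higher and 9.91% lower), and none had an unadjusted p below 0.05. DESeq2 called 0, beside 12.5% of genes tested in either direction. Mcm2 to Mcm7 together came to 1137 and 1284 CPM in Myc-detected and 1175 and 1316 CPM in undetected cells.
Mcm4 had the largest log2 fold change, 0.11 ± 0.11, with a 95% interval of -0.10 to 0.32. The counts behind it were 118 and 172 in the Myc-detected cells. Cdc6 rested on 61 and 64 counts, and its interval ran from -0.25 to 0.32. Cdt1 had an interval of -0.30 to 0.25. Changes of up to about these bounds could not be seen at this depth.
The replication-only class held 27.7% and 30.6% of Myc-detected and 24.3% and 25.2% of undetected cells. Median depth was 9622 and 11134 UMIs in Myc-detected and 8156 and 8963 UMIs in undetected cells, and its part was not tested. When the gates were read on unthinned counts, 5 members were called higher (Mcm3 0.24, Mcm4 0.44, Mcm7 0.29, Mcm10 0.27 and Gmnn 0.28), beside 26.1% of 10030 genes tested called higher and 50% in either direction with the same gates. In the pathway lists, Orc2 (0.59 ± 0.14) was higher, and E2f2 (-0.61 ± 0.12), Cdc20 (-0.54 ± 0.094) and Fzr1 (-0.49 ± 0.12) were lower. Of the 13 activation genes 1 was higher and 1 lower.

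**Figure D5:**
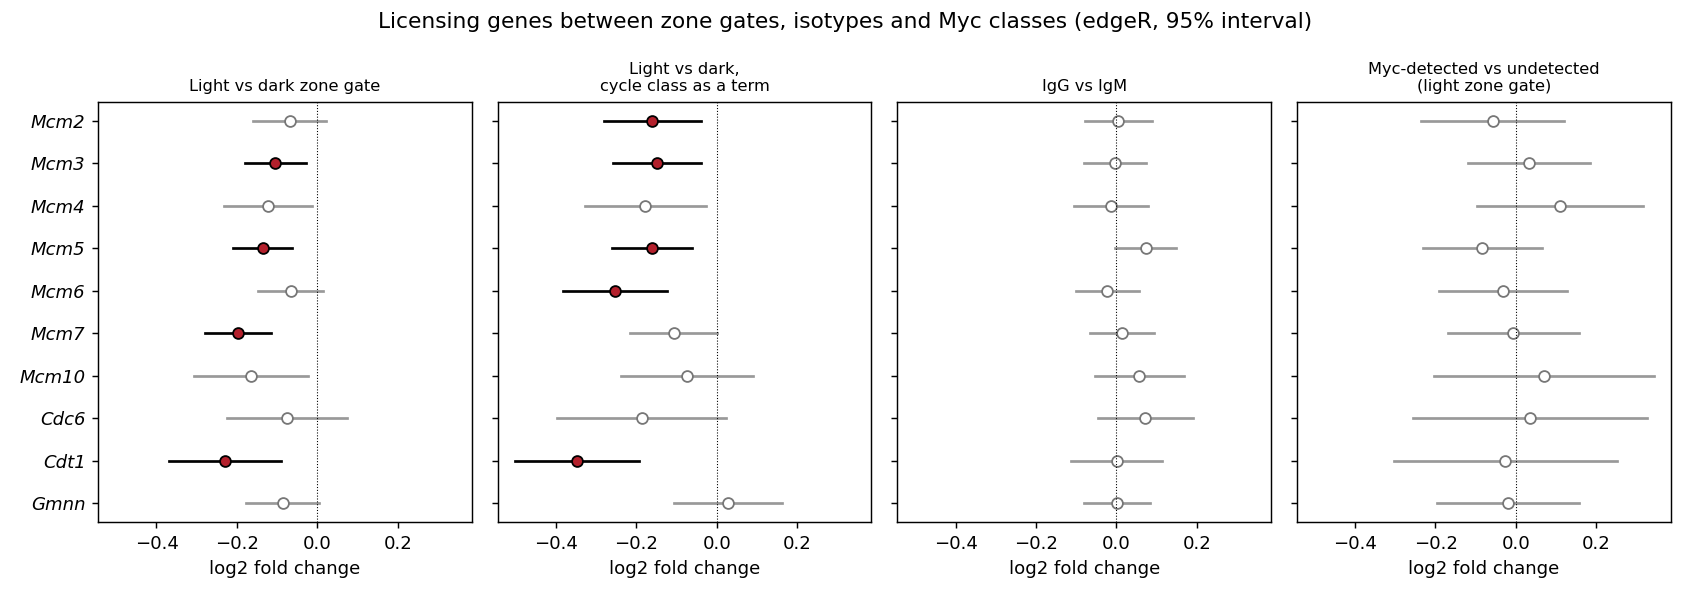
Log2 fold change (horizontal axis) of each licensing gene with its 95% interval in 4 comparisons, fitted by edgeR on sums per library and class. Filled red points passed the adjusted p threshold of 0.05, and open points did not. The filled points are 4 between zone gates and 5 with the cycle class as a term, all below 0, and there are none between isotypes or Myc classes.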

How the data were processed

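UMI counts per gene and barcode were deposited by the authors as raw, unnormalized counts, written, per the file headers, by Cell Ranger 3.0.2, and against mm10 per the submitters' processing notes. The annotation and cell calling rule are not given in the sources used here. Kept barcodes had 500 genes or more, 1000 UMIs or more, and a mitochondrial share of 20% or less. Zone gates, Myc and cycle classes were read on counts thinned to 3400 UMIs, the 10th percentile of depth rounded down, and isotypes on unthinned counts. Unthinned counts were summed per library and class and tested with edgeR 4.0.16 (quasi-likelihood, TMM, filterByExpr, library as a block, Benjamini-Hochberg over all genes tested, threshold 0.05), checked on simulated data. The block is the library from which the sums of each class were drawn, and leaving it out changes the number of calls (closing section). Residual degrees of freedom were 1 in fits of 4 sums (zones, isotypes, Myc), 3 in the fit of 8 cycle class sums and 10 in the fit of 16 zone by cycle sums. SE is the log2 fold change divided by the square root of F. Intervals of shares are exact binomial and cover counting error only. Alternatives were DESeq2 1.42.0, other normalization, filters, mitochondrial limits of 10% and 40%, doublet scores (scanpy 1.11.5), gates and cycle classes. All 10 members were named in every comparison, and of the pathway genes up to 4 with the largest changes among those called. Members and lists were chosen with earlier results of these data known. Gene positions came from the GENCODE annotation of mm10. Of the 11 marker lists, those not described with the results gave 2 of 6 plasmablast markers and 1 of 4 dendritic cell markers (Flt3, 7.63% and 9.70%) in at least 5% of cells, and none of the platelet, stromal, erythroid, neutrophil and natural killer markers.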

Additional observations from a re-analysis of the deposited data

Results flagged for a closer look

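Barcodes above the mitochondrial limit, which entered no comparison, carried licensing transcripts. Mcm2 to Mcm7 together came to 901 CPM in 3243 such barcodes of library 1 and 953 CPM in 4146 of library 2, against 1254 and 1371 CPM in the kept barcodes, and 3 counts would be 0.192 and 0.148 CPM. Per 1000000 non-mitochondrial UMIs the values were 1218 and 1320, against 1405 and 1530 in the kept barcodes. In the barcodes above the limit Mcm5 was at 307 and 306 CPM, and Mcm3 at 152 and 181 CPM. Per 1000000 non-mitochondrial UMIs, Mcm5 was at 416 and 424 there, against 364 and 369 in the kept barcodes. On that scale Mcm10, Cdc6 and Cdt1 were also higher there in both libraries. Mcm3, Mcm4, Mcm6, Mcm7 and Gmnn were lower, and the direction of Mcm2 differed between libraries.

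The zone difference of Mcm4 differed between cycle classes (edgeR interaction test, adjusted p = 0.0342), and the log2 difference of light minus dark zone gate ran from 0.28 in the replication-only class of library 2 to -0.50 in the mitosis-only class of library 1.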

How the results depend on the processing

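The 10 members kept being called in the replication-only against neither and the mitosis-only against replication-only comparisons under every alternative that gave a test. Beside them, 29.9% to 57.9% and 30.3% to 53.1% of genes tested were called in either direction. Shares in brackets below are likewise those of all genes tested, in either direction. Between zone gates the 4 members called became 2 with a mitochondrial limit of 40% (33%) and 8 without the highest 6% of doublet scores (27.5%). The 4 became 0 with DESeq2 (8.11%), no replicate block (4.92%) or sums of thinned counts (13.4%). They also became 0 with another draw of the thinning (21.1%) or gates of at least 2 UMIs (23.7%). With the cycle class as a term the 5 called became 3 with a limit of 10% (13.7%), no filter on low counts (13.3%) or another draw (21.1%). The 5 became 2 with no replicate block (16.4%) and 1 with the highest and lowest parts of the list sums (7.87%). They became 0 with sums of thinned counts (11.8%) or gates of at least 2 UMIs (25.1%). For isotypes 0 became 2 at a limit of 40% (28.2%), and for Myc 0 became 5 with gates on unthinned counts (50%). The causes were not tested.

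Log2 fold changes that turned sign were as follows. Between zone gates they were Cdc6 0.0035 at a limit of 40%, Mcm2 0.0046, Mcm3 0.030, Mcm4 0.026, Mcm6 0.022 and Cdc6 0.075 with sums of thinned counts, Mcm2 0.0029, Mcm4 0.044 and Cdc6 0.0057 with another draw, Mcm4 0.0058 with gates on unthinned counts, and Mcm4 0.070 and Gmnn 0.0077 with gates of at least 2 UMIs. With the cycle class as a term they were Gmnn -0.11 at a limit of 10%, -0.012 without doublet scores, -0.014 with another draw and -0.056 with scanpy scores, Mcm10 0.065 and Cdc6 0.0061 with sums of thinned counts, and Mcm10 0.0085 and Cdc6 0.011 without library 1 (-0.12 and -0.32 without library 2). For isotypes they were Mcm3 0.026 and Mcm6 0.025 at a limit of 10%, and Mcm3 0.00093 without doublet scores. For Myc they were Mcm4 -0.10 at a limit of 10%, Mcm7 0.0084 and Gmnn 0.017 at 40%, Mcm7 0.0028 and Gmnn 0.0078 without doublet scores, Mcm3 -0.0094 with no filter, Mcm3 -0.063, Mcm4 -0.16 and Mcm7 0.093 with sums of thinned counts, Mcm10 -0.10 and Gmnn 0.035 with another draw, Mcm7 0.29 and Gmnn 0.28 with gates on unthinned counts, and Mcm7 0.11 and Gmnn 0.0022 with gates of at least 2 UMIs. For the mitosis-only against the neither class they were Mcm5 -0.014 and Cdt1 0.055 at a limit of 10%, and with scanpy scores Mcm2 0.32, Mcm3 0.66, Mcm4 0.65, Mcm6 0.22, Cdc6 1.82 and Cdt1 0.29.

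Counts over all genes moved by more than 1.5 times as well. Without the replicate block 529 genes were called between zone gates (3271 with it), 86 between isotypes (1572), 1002 for Myc (2374), 3307 for the replication-only (5804) and 2353 for the mitosis-only class (4957) against neither, and 3347 between those classes (5848). Sums of thinned counts gave 1256, 812, 491, 3515, 3219 and 3404 for the same comparisons. DESeq2 gave 770, 270 and 683 for zones, isotypes and Myc, and 3014 for the mitosis-only against the neither class. A limit of 10% gave 2141 for zones and 1278 for Myc, and a limit of 40% gave 3265 for isotypes and 1557 for Myc. Myc counts were 5012 with gates on unthinned counts and 1474 with gates of at least 2 UMIs. With the highest and lowest parts of the list sums, 3738 genes were called for the replication-only against the neither class and 3703 between the mitosis-only and replication-only classes. With the cycle class as a term, 2166 genes became 1211 (limit of 10%), 935 (thinned counts) and 683 (highest and lowest parts). Calls of that fit in 1 library alone are not counted, since the cycle classes serve as the residual spread there. In the other comparisons a single library leaves no residual spread, so no test was possible without library 1 or 2, and log2 fold changes of the members then ran from -0.26 to 0.07 (zones), -0.07 to 0.08 (isotypes), -0.12 to 0.19 (Myc), 0.45 to 2.54 (replication-only against neither), -1.37 to 1.25 (mitosis-only against neither) and -3.73 to -0.92 (mitosis-only against replication-only).

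The zone, isotype and Myc fits have 1 residual degree of freedom, so their p-values lean on the spread that edgeR shares over genes.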
